A study of Mus musculus with 9 samples.

Results

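The genes described here code for integrin chains and for the core proteins that couple integrins to actin inside the cell, 36 in all of 41214 features in the deposited table. They were taken as a fixed set of symbols, 25 alpha and beta chains and 11 cytoplasmic members (talins, kindlins, ILK, parvins, vinculin, the kinase FAK and paxillin). The rule uses no measured value, but the set was proposed with earlier results of these data known. All 36 were found, and 32 passed the filter on low counts and were tested among 17103 genes. The libraries came from ventricles of E17.5 mouse embryos that carried the R26(tom/+) allele with the transgenes Nes-CreER(Tg/0) and Nes-Gfp(Tg/0). In all of them 0.1 µg of tamoxifen was given at E15.5, so that Cre driven by Nes elements marked cells with Tomato. Ventricles were digested with liberase, and viable cells negative for Ter119 and CD45 and positive for CD31 and GFP were sorted. The endocardial population (3 libraries) comes from the lining of the chambers, and its gate as written in the labels names CD31 and GFP but neither endomucin nor Tomato; endothelial cells of other vessels may therefore be in it. The arterial population (3 libraries) was low for endomucin and positive for Tomato. The venous population (3 libraries) was low for endomucin, negative for Tomato and low for GFP. The mean of the arterial and venous populations is called coronary. No member gene was a sort marker. The labels do not say that the replicates came from separate animals, so that p-values measure only the spread between libraries, which may be technical.

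Integrins are cell surface receptors made of an alpha and a beta chain. The pair decides the ligand: some bind collagens, some laminins, and some the RGD motif of fibronectin, vitronectin and related proteins. Talin and kindlin bind the cytoplasmic tail of the beta chain and switch the receptor on, vinculin and the complex of ILK with parvin tie it to actin, and FAK with paxillin passes the signal on. In the endothelium these contacts hold the cell to its basement membrane and sense flow and stretch.

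Each library held between 12750475 and 19474299 counts, and 3 counts corresponded to 0.154 to 0.229 CPM (counts scaled by depth, after TMM scaling), the level below which a gene counts as not detectable here. A level given as a mean carries the SD over 3 libraries, and a difference, in log2, carries its SE. All 14 endocardial markers were higher in the endocardial than in the coronary libraries, and 7 of them were lower in the arterial than in the venous libraries. Between arterial and venous libraries 9 of 12 arterial markers were higher and 3 of 7 venous markers lower. The sum of the venous markers was 2970 to 3135 CPM in endocardial, 908 to 1006 CPM in arterial and 1523 to 1678 CPM in venous libraries. These 7 markers were split, with 3 called higher and 2 lower in endocardial than in venous libraries (median log2 difference 0.36). The summed level of 16 markers shared by endothelial cells was 5377 to 7522 CPM in endocardial, 7297 to 9995 CPM in arterial and 7188 to 9516 CPM in venous libraries, and 2 were called higher and 7 lower in endocardial than in coronary libraries (median log2 difference -0.65). Of 7 markers of lymphatic endothelium, 5 were higher and none lower in endocardial than in coronary libraries (median log2 difference 4.48), and all 7 had counts. Their sum was 851 to 973 CPM in endocardial, 89.9 to 114 CPM in arterial and 128 to 209 CPM in venous libraries. Prox1, the transcription factor that specifies lymphatic identity, averaged 241 ± 25.6, 7.30 ± 1.2 and 18.3 ± 7.14 CPM in endocardial, arterial and venous libraries, and Lyve1, a hyaluronan receptor, 239.8 ± 29.4, 3.10 ± 3.35 and 8.92 ± 2.33 CPM. The part of these marker differences in the members' levels was not tested. Endocardial replicate 1 stood apart from its group. Its log2 CPM correlated with the other endocardial libraries at 0.910 to 0.913, against 0.944 between those, and it had a count in 21021 genes, against 17251 and 17063. Replicate 1 also had the most genes with a count in the arterial (21160, against 19528 and 20269) and venous populations (19665, against 19208 and 18354). Without endocardial replicate 1, 8 of the 10 member calls described next remained, and the exceptions, Fermt2 and Ilk, are given with their values.

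Of the 32 members tested, 4 were higher (Itga8, Itgav, Itgb4 and Tln2) and 6 lower (Itga1, Itga2, Fermt2, Ilk, Vcl and Ptk2) in endocardial than in coronary libraries at an adjusted p under 0.05 in edgeR's quasi-likelihood test. Over all genes tested, 13.9% were called in this comparison, 6.91% higher and 7.00% lower. The share called depends on the level of a gene. At a mean of at least 5 CPM, 10 of 20 members were called (50%), against 20.8% of 10532 genes. This minimum was chosen after the values were seen and kept all 10 called members. The shares are therefore a description and cannot show whether members were called more often than other genes. The median log2 difference was 0.13 over the 32 members and 0.08 over all genes. The lower genes were the collagen-binding chains Itga1 and Itga2 and 4 cytoplasmic members, and the higher ones the RGD-binding chains Itga8 and Itgav, the laminin-binding Itgb4 and the talin gene Tln2. In bulk libraries, fewer cells of a type and less RNA per cell cannot be told apart. Within each of the 3 batches the 10 called members had the direction of their call. Of all genes tested, called or not, 44.4% had the same direction in all 3 batches. The count for the members is a description only, since the same libraries gave the calls.

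**Figure D1:**
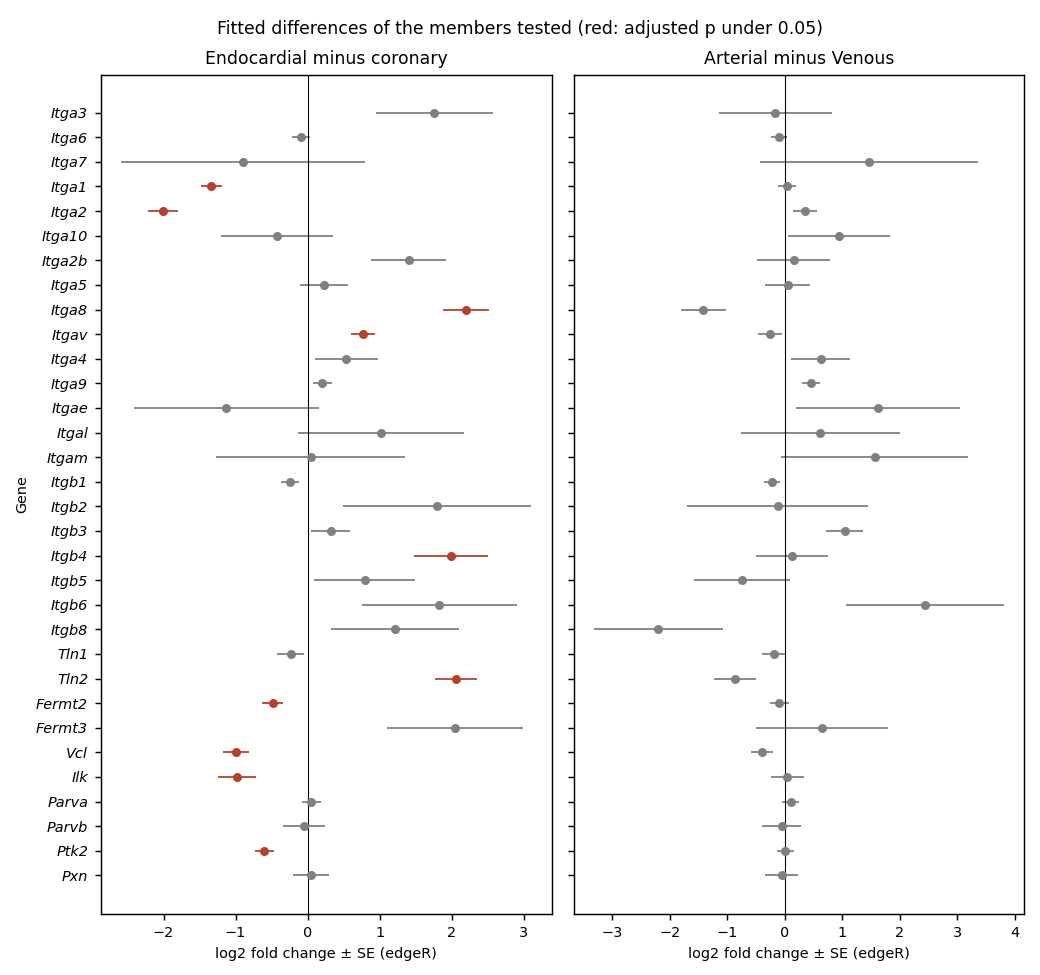
Log2 difference with bars of 1 SE for the 32 members tested, ordered by role, endocardial minus coronary in the left panel and arterial minus venous in the right one, with red for an adjusted p under 0.05. In the left panel Itga8, Tln2, Itgb4 and Itgav are red to the right of 0 and Itga2, Itga1, Vcl, Ilk, Ptk2 and Fermt2 red to the left, while the right panel holds no red point.

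The genes of the main collagen-binding alpha chains were lower in the endocardial libraries. Itga1 (chr13:114953096-115101964, minus strand), the alpha1 chain that joins beta1 to bind collagens, among them the type IV collagen of basement membranes, stood at 61.0, 63.9 and 57.3 CPM in the endocardial libraries, against 154, 167 and 146 CPM in the arterial and 142, 149 and 164 CPM in the venous libraries. Every endocardial library lay below every coronary library. The level was 2.53-fold lower in endocardial than in coronary libraries (log2 difference -1.34 ± 0.15 SE, adjusted p = 5.96e-06). The fall was -1.36 on the log2 scale against arterial libraries (adjusted p = 1.73e-05) and -1.32 against venous libraries (adjusted p = 3.55e-05), and arterial and venous levels overlapped.

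Itga2 (chr13:114833081-114932100, minus strand), the neighbouring gene on the same strand, codes for alpha2, the partner of beta1 that prefers fibrillar collagens. It stood at 21.0, 16.6 and 29.8 CPM in endocardial libraries, against 92.3, 109 and 105 CPM in arterial and 85.1, 78.5 and 76.8 CPM in venous libraries. The gap between endocardial and coronary libraries was wider than for Itga1, a 4.02-fold lower level (log2 difference -2.01 ± 0.20 SE, adjusted p = 2.45e-06). Arterial libraries lay above venous ones without overlap, but the difference did not pass the test (log2 0.35 ± 0.21 SE, adjusted p = 0.73). Itga1 and Itga2 were called against coronary, arterial and venous libraries under every alternative setting tried, including each left-out library. The other collagen receptors were scarce: Itga10 averaged 1.98 ± 1.2, 3.70 ± 1.63 and 1.92 ± 0.691 CPM in endocardial, arterial and venous libraries (adjusted p = 0.817), and Itga11 had 45 counts over all 9 libraries and was not tested.

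The 250 bases before the start of Itga1 and of Itga2 are shown because both genes fell and lie side by side. They are from RefSeq on GRCm38.p6, minus strand, at chr13:115101965-115102214 for Itga1 and chr13:114932101-114932350 for Itga2, written 5′ to 3′. Neither window held a CArG box, AGATAA or CCGGAA on either strand, so that no letters are in capitals.
Itga1: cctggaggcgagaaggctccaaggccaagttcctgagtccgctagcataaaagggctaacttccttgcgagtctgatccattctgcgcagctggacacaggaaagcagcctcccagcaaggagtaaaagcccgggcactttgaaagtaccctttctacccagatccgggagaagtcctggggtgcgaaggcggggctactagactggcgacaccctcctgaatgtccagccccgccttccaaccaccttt
Itga2: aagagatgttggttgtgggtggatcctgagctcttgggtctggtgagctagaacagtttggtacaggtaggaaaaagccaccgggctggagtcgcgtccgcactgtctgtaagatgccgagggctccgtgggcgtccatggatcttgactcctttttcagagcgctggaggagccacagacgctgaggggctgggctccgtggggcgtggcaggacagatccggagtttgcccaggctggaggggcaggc

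The summed level of mural cell genes was also lower in the endocardial libraries, with 3 of 12 markers called lower and 1 higher against coronary libraries. All 12 markers of pericytes and smooth muscle had counts, and their sum was 81.8 to 153 CPM in endocardial, 538 to 847 CPM in arterial and 236 to 345 CPM in venous libraries. The defining markers differed in direction: Rgs5 averaged 4.17 ± 1.8, 71.3 ± 14.6 and 29.3 ± 7.63 CPM in endocardial, arterial and venous libraries, Kcnj8 2.52 ± 2.94, 42.5 ± 8.73 and 8.99 ± 1.67 CPM, Pdgfrb 40.8 ± 16.5, 14.8 ± 9.46 and 9.40 ± 2.64 CPM and Cspg4 6.08 ± 2.29, 5.56 ± 2.60 and 6.04 ± 2.26 CPM, and none was at 0. The part of these cells in the levels of Itga1 and Itga2 was not tested.

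**Figure D2:**
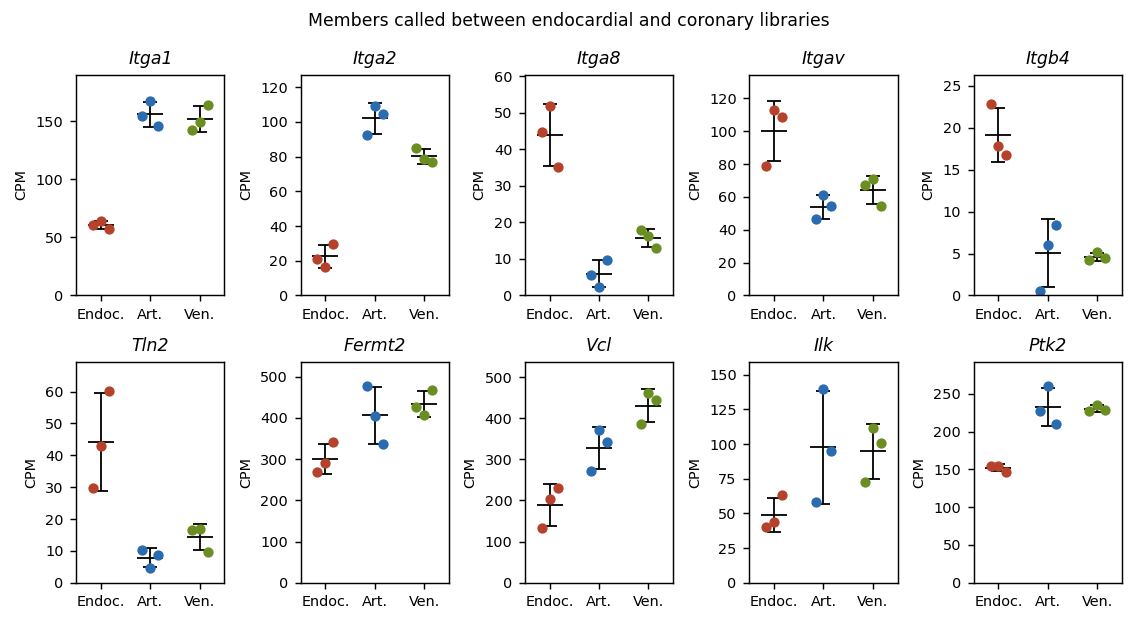
CPM on a linear axis from 0 in each library (dots) for the 10 members called between endocardial and coronary libraries, with the mean and bars of 1 SD for endocardial (Endoc.), arterial (Art.) and venous (Ven.) libraries. Endocardial dots of Itga1, Itga2, Vcl and Ptk2 lie below all coronary dots, those of Itga8, Itgav, Itgb4 and Tln2 above them, and those of Fermt2 and Ilk overlap.

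Among the alpha chains that bind the RGD motif, the genes of alpha8 and alphav were higher in the endocardial libraries. Itga8 (chr2:12106632-12301922, minus strand), whose product joins beta1 and binds nephronectin, fibronectin and other RGD proteins, stood at 44.8, 52.0 and 35.1 CPM in endocardial libraries, against 5.60, 2.36 and 9.78 CPM in arterial and 17.9, 16.2 and 13.0 CPM in venous libraries. The 3 populations did not overlap, with the arterial libraries lowest. The level was 4.57-fold higher in endocardial than in coronary libraries (log2 difference 2.19 ± 0.32 SE, adjusted p = 0.000138). Against arterial libraries the log2 difference was 2.90 ± 0.42 SE (adjusted p = 0.000128), and against venous libraries 1.49 ± 0.39 SE (adjusted p = 0.0216). The call against venous libraries was lost without endocardial replicate 2 (adjusted p = 0.0748) and without venous replicate 3 (adjusted p = 0.104). The arterial to venous difference of -1.41 ± 0.40 SE did not pass the test (adjusted p = 0.159), but did without arterial replicate 3 (adjusted p = 0.0147) and with no filter on low counts (adjusted p = 0.00168).

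Itgav (chr2:83724397-83806916, plus strand) codes for alphav, which joins several beta chains and binds vitronectin, fibronectin and the latent form of TGF-beta. Its level was 79.0, 113 and 109 CPM in endocardial libraries, against 46.3, 61.0 and 54.3 CPM in arterial and 67.4, 71.1 and 54.8 CPM in venous libraries. Every endocardial library lay above every coronary library, 1.70-fold on average (log2 difference 0.77 ± 0.17 SE, adjusted p = 0.00469). Without endocardial replicate 2 the adjusted p was 0.0582. The difference from arterial libraries passed the test (log2 0.90 ± 0.20 SE, adjusted p = 0.00646). That from venous libraries did not (log2 0.64 ± 0.20 SE, adjusted p = 0.0559), although it did with the replicate block (adjusted p = 0.0345) and with RLE (0.0427) or upper-quartile scaling (0.0332).

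Fibroblast genes were detected beside these receptors. All 13 fibroblast markers had counts, and their sum was 1708 to 2060 CPM in endocardial, 114 to 131 CPM in arterial and 1466 to 1707 CPM in venous libraries. Against coronary libraries, 7 of the 13 were called higher and 1 lower in endocardial libraries. The list was split against venous libraries, with 4 called higher and 4 lower (median log2 difference -0.86). Pdgfra averaged 112 ± 10.2, 2.97 ± 0.447 and 32.4 ± 6.79 CPM in endocardial, arterial and venous libraries, Lum 63.3 ± 20.8, 0.734 ± 0.705 and 15.8 ± 3.10 CPM, Dcn 85.5 ± 25.3, 2.96 ± 2.86 and 56.3 ± 3.67 CPM and Col1a1 26.7 ± 8.98, 6.04 ± 2.5 and 149 ± 27.5 CPM, and none was at 0. Their order over the populations is that of Itga8 for Pdgfra, Lum and Dcn and not for Col1a1, which was highest in venous libraries. The part of fibroblasts in the levels of Itga8, Itgav or the other members was not tested.

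The remaining RGD-binding alpha chains were not called. Itga5 codes for alpha5, the main fibronectin receptor with beta1, and stood at 66.3, 207 and 167 CPM in endocardial libraries, against 91.5, 151 and 140.3 CPM in arterial and 93.0, 159 and 118 CPM in venous libraries. Replicate 1 was the lowest library in each population, the groups overlapped, and the log2 difference was 0.23 ± 0.34 SE (adjusted p = 0.774). Itga2b, whose product with beta3 is the fibrinogen receptor of platelets, averaged 7.46 ± 2.34, 2.99 ± 1.39 and 2.68 ± 0.674 CPM in endocardial, arterial and venous libraries. Its endocardial libraries lay above the others without overlap, but the difference did not pass the test (log2 1.40 ± 0.52 SE, adjusted p = 0.0945). All 13 platelet and megakaryocyte markers had a count in at least 1 library, and their sum was 53.5 to 68.3 CPM in endocardial, 59.3 to 71.9 CPM in arterial and 74.1 to 105 CPM in venous libraries. Of the 10 tested, 2 were called higher and 1 lower in endocardial than in coronary libraries, and 9 had a positive log2 difference (median 1.39). Of their defining genes, Pf4 averaged 4.86 ± 1.76, 2.51 ± 1.15 and 2.88 ± 0.839 CPM in endocardial, arterial and venous libraries, Ppbp 4.98 ± 1.07, 0.418 ± 0.723 and 1.88 ± 0.970 CPM and Gp9 1.74 ± 1.61, 0.548 ± 0.325 and 0.368 ± 0.492 CPM, and Gp1bb was at 0 in all endocardial libraries. The part of platelets in Itga2b was not tested.

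Laminin receptors were dominated by Itga6 in every population. Itga6, the alpha6 chain that binds laminins with beta1 or beta4, averaged 666 ± 81.8, 685 ± 53.1 and 735 ± 30.1 CPM in endocardial, arterial and venous libraries and did not differ detectably (log2 -0.09 ± 0.12 SE, adjusted p = 0.743). Itga3 averaged 4.68 ± 4.13, 1.3 ± 0.950 and 1.46 ± 0.655 CPM and Itga7, the alpha7 chain of muscle, 0.688 ± 1.19, 2.13 ± 1.36 and 0.771 ± 0.772 CPM, and neither was called. Itgb4 (chr11:115974709-116008412, plus strand), the beta chain that pairs with alpha6 alone and anchors hemidesmosomes in epithelia, stood at 22.8, 17.9 and 16.7 CPM in endocardial libraries, against 0.590, 6.05 and 8.46 CPM in arterial and 4.26, 5.12 and 4.45 CPM in venous libraries. Endocardial libraries lay above all others, 3.97-fold on average, with a wide error (log2 difference 1.99 ± 0.51 SE, adjusted p = 0.0169). Without endocardial replicate 2 the adjusted p was 0.0512. Against arterial libraries alone the adjusted p was 0.071 and against venous libraries alone 0.0584. Its partner Itga6 was not called in any of these comparisons. Exons of Itga8, Itgav and Itgb4 overlap a gene on the other strand, and without the strandedness of the counting their reads cannot be told apart. These partners were low: E030013I19Rik averaged 1.25 ± 1.09, 0.344 ± 0.596 and 0.0683 ± 0.118 CPM in endocardial, arterial and venous libraries, Gm13684 1.44 ± 0.917, 2.57 ± 0.154 and 0.652 ± 0.195 CPM and B230344G16Rik 2.47 ± 3.09, 0.172 ± 0.298 and 0.185 ± 0.321 CPM.

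The chains of the alpha4 and alpha9 pair bind fibronectin, VCAM1 and tenascins. Itga9 averaged 187 ± 16.9, 189.8 ± 13.4 and 138 ± 5.79 CPM in endocardial, arterial and venous libraries and was not called (log2 0.20 ± 0.13 SE, adjusted p = 0.394). All arterial libraries lay above all venous ones, with a log2 difference of 0.46 ± 0.15 SE that did not pass the test (adjusted p = 0.321). Itga4 averaged 22.3 ± 10.9, 19.2 ± 11 and 12.4 ± 6.82 CPM in the same order of populations, overlapped between them, and was not called (adjusted p = 0.535).

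Itgb1 (chr8:128685654-128733200, plus strand), the beta1 chain shared by most of these receptors, was the most abundant member. It stood at 949, 1023 and 1036 CPM in endocardial libraries, against 1094, 1182 and 1034 CPM in arterial and 1319.8, 1119 and 1422 CPM in venous libraries. Endocardial libraries lay within or just below the coronary range, and the log2 difference of -0.25 ± 0.12 SE did not pass the test (adjusted p = 0.222). Of the alpha chains named above as its partners, Itga1 and Itga2 were lower and Itga8 was higher. Itgb3, which joins alphav, averaged 21.4 ± 7.99, 24.7 ± 2.23 and 11.9 ± 2.62 CPM in endocardial, arterial and venous libraries. It was not called against coronary libraries (adjusted p = 0.54), and its arterial libraries lay above all venous ones (log2 1.04 ± 0.32 SE, adjusted p = 0.213). Itgb5, Itgb6 and Itgb8, which also code for partners of alphav, were low. Itgb5 averaged 3.33 ± 0.702, 1.48 ± 0.0734 and 2.49 ± 0.358 CPM in the same order, Itgb6 2.44 ± 2.40, 1.59 ± 0.594 and 0.285 ± 0.285 CPM and Itgb8 3.01 ± 1.56, 0.597 ± 0.469 and 2.78 ± 1.58 CPM, and none was called (adjusted p = 0.567, 0.337 and 0.472).

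Integrins of leukocytes were low and varied widely between libraries of a population, which were sorted to lack CD45-positive cells. Itgal averaged 2.75 ± 2.37, 1.68 ± 2.32 and 1.09 ± 1.05 CPM in endocardial, arterial and venous libraries, Itgam 0.863 ± 0.872, 1.45 ± 0.342 and 0.485 ± 0.502 CPM, Itgae 0.833 ± 1.26, 3.21 ± 2.04 and 1.04 ± 1.08 CPM and Itgb2 1.94 ± 0.957, 0.532 ± 0.575 and 0.578 ± 0.578 CPM, and none was called in any comparison. Itgae ran from 0.0721 to 2.29 CPM over the endocardial, from 1.61 to 5.52 CPM over the arterial and from 0.118 to 2.22 CPM over the venous libraries. Itgax had 24 counts and Itgb7 23 counts over all libraries, and neither was tested. All 24 leukocyte markers had a count in at least 1 library, and their sum was 42.2 to 62.3 CPM in endocardial, 71.7 to 101 CPM in arterial and 80.5 to 98.8 CPM in venous libraries. Ptprc, which codes for CD45, averaged 0.782 ± 1.11, 2.12 ± 1.17 and 0.788 ± 0.973 CPM, and Adgre1 was at 0 in 6 of the 9 libraries.

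Levels of different genes were compared only per kilobase of merged exon, which makes genes with long untranslated exons, such as Itga1 and Tln2, look lower. On this scale Itga6 led the alpha chains at 73.8 CPM per kb in endocardial, 75.9 in arterial and 81.4 in venous libraries. Itga5 came next at 29.7, 25.9 and 25.0 CPM per kb, and Itga9 followed at 24.3, 24.7 and 18.0 CPM per kb. Their ranges over libraries overlapped in the endocardial and the arterial population. Below these the order depended on the population. In endocardial libraries Itgav came first (9.33 CPM per kb), then Itga8 (5.97), Itga1 (3.26) and Itga2 (3.15), level with each other, and Itga4 (1.60). In arterial libraries the order was Itga2 (14.3 CPM per kb), Itga1 (8.37), Itgav (5.01), Itga4 (1.37) and Itga8 (0.803). In venous libraries Itga2 was at 11.2, Itga1 at 8.15, Itgav at 5.99, Itga8 at 2.13 and Itga4 at 0.890 CPM per kb. The summed level per kb of the 2 collagen-binding chains over that of Itgav and Itga8 was 0.463, 0.328 and 0.488 in endocardial libraries, against 4.19, 4.06 and 3.53 in arterial and 2.25, 2.16 and 2.85 in venous libraries. The chains of this ratio were chosen after their differences were known, and it is given as a description. Among beta chains Itgb1 stood at 246, 270.4 and 315 CPM per kb in endocardial, arterial and venous libraries, far above Itgb3 at 3.63, 4.18 and 2.02.

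**Figure D3:**
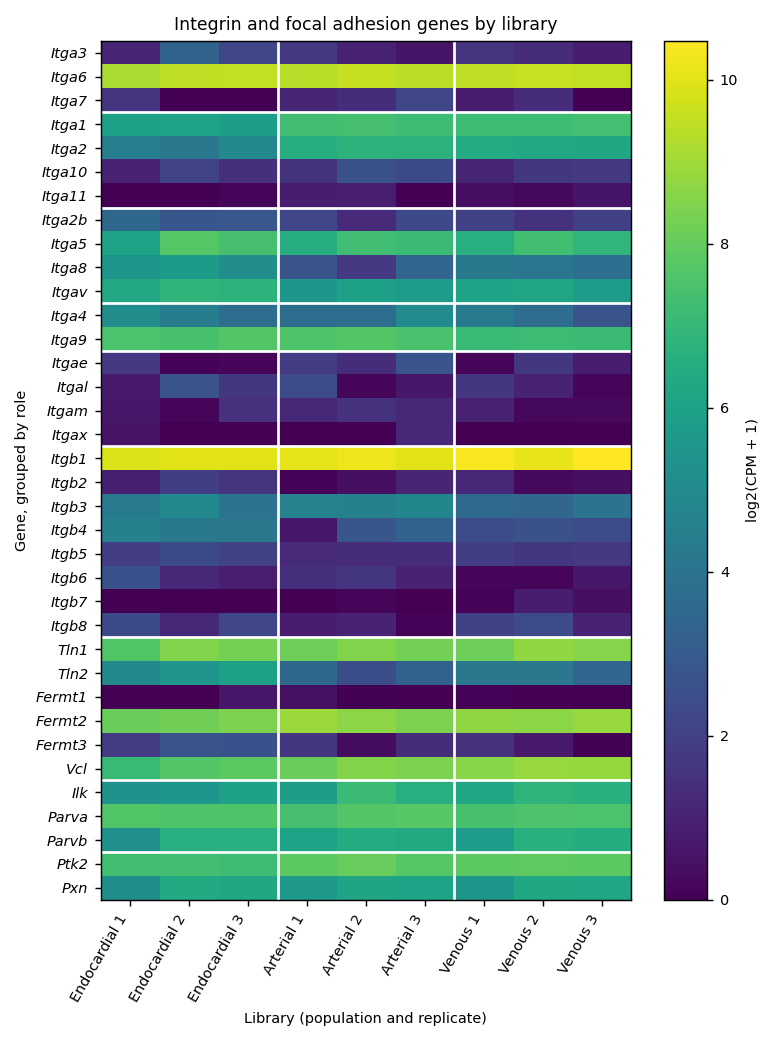
Level of all 36 members in each of the 9 libraries as log2(CPM + 1), from dark (0) to yellow (high), with endocardial libraries at the left, then arterial and venous, and genes grouped by role. Itgb1 and Itga6 are bright in every column, the leukocyte chains are dark throughout, and Itga1 and Itga2 are darker, and Itga8 and Tln2 brighter, in the endocardial columns.

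Inside the cell, the 2 talin genes behaved differently. Tln1, which codes for the talin of most cells, stood at 194, 360.1 and 307 CPM in endocardial libraries, against 283, 362 and 306 CPM in arterial and 282, 419.9 and 379.7 CPM in venous libraries. The groups overlapped and the log2 difference was -0.23 ± 0.19 SE (adjusted p = 0.512). Tln2 (chr9:67217087-67559703, minus strand), the talin known from heart muscle and brain, stood at 29.6, 42.9 and 60.3 CPM in endocardial libraries, against 10.4, 4.72 and 8.60 CPM in arterial and 16.6, 16.9 and 9.68 CPM in venous libraries. Every endocardial library lay above every coronary library, 4.15-fold on average (log2 difference 2.05 ± 0.29 SE, adjusted p = 9.39e-05). The difference passed the test against arterial libraries (log2 2.49 ± 0.37 SE, adjusted p = 0.000175) and against venous libraries (log2 1.62 ± 0.36 SE, adjusted p = 0.00659). Per kb of exon, Tln2 reached 8.14%, 6.36% and 10.5% of Tln1 in endocardial libraries, against 1.96%, 0.696% and 1.5% in arterial and 3.15%, 2.15% and 1.36% in venous libraries, so that Tln1 remained the main talin gene in each.

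Heart muscle expresses Tln2, and its markers were detected in all libraries. The 15 cardiomyocyte markers summed to 538 to 639 CPM in endocardial, 291 to 419 CPM in arterial and 430 to 594 CPM in venous libraries. Tnnt2 averaged 123 ± 31.5, 46.5 ± 13.7 and 101 ± 35.1 CPM in endocardial, arterial and venous libraries, Myh6 34.4 ± 5.70, 18.4 ± 0.389 and 31.9 ± 9.04 CPM, Myh7 113 ± 18.3, 71.7 ± 21.2 and 116 ± 18.6 CPM and Actc1 77.2 ± 20.7, 32.2 ± 7.08 and 72.7 ± 13.9 CPM, and none was at 0. Of the 14 tested, 3 were called higher and none lower in endocardial than in coronary libraries. The part of cardiomyocyte RNA in Tln2 was not tested.

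The RNA of vinculin was lower in the endocardial libraries. Vcl (chr14:20929398-21033676, plus strand), whose product binds talin under tension and ties it to actin, stood at 133, 204 and 229.8 CPM in endocardial libraries, against 271, 371 and 341 CPM in arterial and 385, 462 and 445 CPM in venous libraries. The endocardial libraries lay below all others and the arterial below the venous ones. The level was 1.99-fold lower in endocardial than in coronary libraries (log2 difference -0.99 ± 0.18 SE, adjusted p = 0.00079). The fall was -1.19 on the log2 scale against venous libraries (adjusted p = 0.00065) and -0.80 against arterial libraries (adjusted p = 0.0121), and without arterial replicate 2 the last was not called (adjusted p = 0.0892). The arterial to venous difference of -0.39 ± 0.20 SE did not pass the test (adjusted p = 0.615). Exons of Vcl overlap those of Ap3m1 on the other strand, and the strandedness of the counting is not given. Ap3m1 averaged 138 ± 41.5, 141 ± 32.0 and 148 ± 12.9 CPM in endocardial, arterial and venous libraries and was not called (adjusted p = 0.904).

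Kindlin-2, the product of Fermt2 (chr14:45458795-45530118, minus strand), binds the beta chain beside talin. Fermt2 stood at 268, 291 and 340.4 CPM in endocardial libraries, against 476, 404 and 337 CPM in arterial and 426, 407 and 468 CPM in venous libraries. The groups overlapped in 1 library each, endocardial replicate 3 and arterial replicate 3. The log2 difference of -0.49 ± 0.14 SE was called (adjusted p = 0.0322), but leaving out any library except endocardial replicate 3 or arterial replicate 3 ended the call (adjusted p = 0.0509 to 0.129, and 0.104 without endocardial replicate 1). Against venous libraries the adjusted p was 0.0489. It was 0.0524 with RLE scaling, and 0.0658 to 0.189 without endocardial replicate 1 or 2, arterial replicate 2 or any venous library. Per kb Fermt2 exceeded either talin gene, at 57.7 CPM per kb in endocardial, 78.2 in arterial and 83.5 in venous libraries. Fermt3, the kindlin of blood cells, averaged 4.43 ± 1.66, 1.35 ± 0.954 and 0.855 ± 0.904 CPM in endocardial, arterial and venous libraries. Its endocardial libraries lay above all others, without a call (adjusted p = 0.191). Fermt1, the kindlin of epithelia, had 15 counts in all and was not tested.

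The promoters of Vcl and Fermt2, both lower in the endocardial libraries, are shown for a shared motif. Of the 10 called members, 7 had a RefSeq promoter entry (Itga1, Itga2, Itga8, Itgav, Fermt2, Ilk and Vcl). The CArG box, the motif bound by serum response factor, was found in 2 of them by a search of both strands over the 250 bases before the start, and 1.47% of 32851 such windows of all genes held it. Members that were not called were not searched, so a link of the box to the fall was not tested. It began 227 bases before the RefSeq start of Vcl and 204 bases before that of Fermt2. The Fermt2 window has 53 of its bases inside the gene as GENCODE annotates it, and from that start the box began 151 bases upstream. AGATAA was in none of the 7 (9.99% of all windows), and CCGGAA was in Ilk alone (12.0% of all windows). A match describes the letters of a window and does not show that a factor binds there. The window of Vcl (chr14:20929148-20929397, plus strand) and the site of Fermt2 with its neighbouring bases (chr14:45530250-45530279, minus strand) are from RefSeq on GRCm38.p6, with the CArG box in capitals.
Vcl: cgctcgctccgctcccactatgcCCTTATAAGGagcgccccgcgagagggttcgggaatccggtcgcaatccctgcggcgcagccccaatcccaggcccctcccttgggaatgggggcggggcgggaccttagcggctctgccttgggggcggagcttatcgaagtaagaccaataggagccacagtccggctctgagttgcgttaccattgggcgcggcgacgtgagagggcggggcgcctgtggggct
Fermt2: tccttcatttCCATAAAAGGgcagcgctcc

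The RNA of FAK was lower as well. Ptk2 (chr15:73205102-73423280, minus strand), the gene of this tyrosine kinase, which is activated at integrin contacts, stood at 155, 155 and 147 CPM in endocardial libraries, against 227, 260.0 and 209.9 CPM in arterial and 227, 236 and 229 CPM in venous libraries. The libraries of each population were close together and the endocardial ones lay below all others. The log2 difference was -0.61 ± 0.13 SE (adjusted p = 0.00457), and this call held under every alternative. Against arterial libraries the adjusted p was 0.012 and against venous libraries 0.0157. The first was lost without endocardial replicate 2 (0.0520), endocardial replicate 3 (0.0584) or arterial replicate 2 (0.136), and the second without endocardial replicate 2 or 3 or any venous library (0.0527 to 0.0827). Pxn, which codes for the adaptor paxillin, averaged 64.9 ± 25.1, 61.8 ± 10.3 and 64.1 ± 15.6 CPM in endocardial, arterial and venous libraries and did not differ detectably (log2 0.04 ± 0.25 SE, adjusted p = 0.949).

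ILK forms a complex with parvin and PINCH at the beta chain. Ilk (chr7:105736592-105742925, plus strand) stood at 40.0, 43.7 and 63.0 CPM in endocardial libraries, against 58.2, 139.6 and 95 CPM in arterial and 72.8, 111 and 100.4 CPM in venous libraries. The lowest arterial library, replicate 1, lay below the highest endocardial one. The log2 difference of -0.98 ± 0.26 SE was called (adjusted p = 0.023). The call was lost without endocardial replicate 1 (0.101), endocardial replicate 2 (0.150), arterial replicate 3 (0.0607) or venous replicate 2 (0.0570). Against arterial libraries the adjusted p was 0.0427, but 0.0501 with RLE scaling and 0.0617 with limma-voom. Without endocardial replicate 1 or 2, arterial replicate 2 or 3, or venous replicate 2 or 3 it was 0.0620 to 0.244. Against venous libraries it was 0.0569, or 0.00552 with the replicate block. Exons of Ilk overlap those of Taf10 and Rrp8 on the other strand, so that its counts are uncertain. Taf10 averaged 8.43 ± 7.09, 22.6 ± 2.81 and 17.3 ± 4.60 CPM in endocardial, arterial and venous libraries (adjusted p = 0.265) and Rrp8 12.1 ± 2.17, 9.65 ± 1.92 and 9.47 ± 0.412 CPM (adjusted p = 0.572). The parvins did not follow Ilk. Parva averaged 193 ± 4.15, 193 ± 23.4 and 180.1 ± 7.98 CPM in the same order (adjusted p = 0.894) and Parvb 76.1 ± 33.5, 77.5 ± 11.3 and 80.5 ± 24.8 CPM (adjusted p = 0.949). Of the PINCH genes, which are not members, Lims1 averaged 318 ± 10.5, 297 ± 41.9 and 264 ± 35.4 CPM and was not called (adjusted p = 0.486). Lims2 averaged 1.07 ± 1.66, 19.4 ± 7.84 and 15.9 ± 8.49 CPM and was called lower (log2 -4.01 ± 1.09 SE, adjusted p = 0.048). Against arterial or venous libraries alone Lims2 was not called (adjusted p = 0.059 and 0.0807).

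Between arterial and venous libraries no member was called by edgeR, DESeq2 or limma-voom, and the background was low, with 1.07% of all genes called, 0.310% higher and 0.760% lower. At an unadjusted p under 0.05 there were 4 members (Itga8, Itga9, Itgb3 and Tln2), against 8.48% of all genes. Against arterial libraries, 3 members were higher (Itga8, Itgav and Tln2) and 5 lower (Itga1, Itga2, Ilk, Vcl and Ptk2) in endocardial libraries, where 11.7% of all genes were called, 5.75% higher and 5.92% lower. Against venous libraries, 2 were higher (Itga8 and Tln2) and 5 lower (Itga1, Itga2, Fermt2, Vcl and Ptk2), where 10.2% were called, 4.44% higher and 5.81% lower. These comparisons share the endocardial libraries.

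The members also varied between batches, which the labels number like the replicates. Library 1 was the lowest of its population in all 3 populations for 8 of 32 members (25.0%): Itga5, Itga6, Itga10, Tln1, Ilk, Parvb, Vcl and Pxn, against 8.52% of all genes tested. Library 2 was the highest in all 3 populations for 6 members (Itga5, Itgav, Tln1, Parvb, Ptk2 and Pxn), against 4.55% of all genes. Within this pattern, Parvb stood at 37.4, 96.9 and 93.9 CPM in endocardial, 64.5, 85.6 and 82.3 CPM in arterial and 52.7, 101 and 88.2 CPM in venous libraries, and Pxn at 36.4, 84.1 and 74.2 CPM in endocardial, 50, 68.9 and 66.5 CPM in arterial and 46.3, 75.4 and 70.7 CPM in venous libraries. For both genes the means of the populations differed by less than library 1 did from the others of its population.

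**Figure D4:**
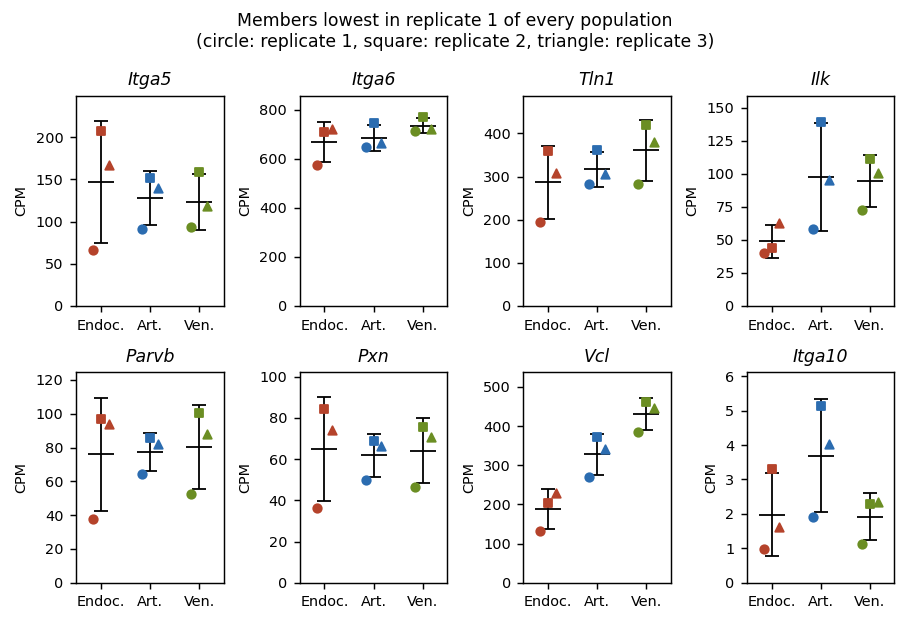
CPM on a linear axis from 0 for the 8 members that were lowest in replicate 1 of every population, with a circle for replicate 1, a square for replicate 2, a triangle for replicate 3, and the mean with bars of 1 SD for endocardial (Endoc.), arterial (Art.) and venous (Ven.) libraries. The circle is the lowest mark in every column, and for Itga5, Parvb and Pxn the columns of the 3 populations overlap.

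Other proteins of the adhesion plaque were measured beside the members, in lists drawn up with earlier results of these data known. Of 40 proteins close to integrin contacts 39 were tested, and 4 were higher and 11 lower in endocardial than in coronary libraries, where 6.91% of all genes tested were higher and 7.00% lower. Of genes at a mean of at least 5 CPM, 20.8% were called in either direction. Kank1 (chr19:25236975-25434496, plus strand), whose product binds talin and links adhesions to microtubules, was the gene with the smallest p among the rises and stood at 338, 496 and 497 CPM in endocardial libraries, against 15.1, 4.78 and 14 CPM in arterial and 39.9, 20.4 and 24.9 CPM in venous libraries (log2 4.63 ± 0.36 SE, adjusted p = 3.79e-05). Its relative Kank2 was also higher, with 111 ± 12.8 CPM in the endocardial, 69.0 ± 18.2 CPM in the arterial and 54.8 ± 7.62 CPM in the venous population (adjusted p = 0.00319). Fblim1, the gene of the filamin-binding protein migfilin, averaged 73.5 ± 1.28, 31.9 ± 6.31 and 30.9 ± 3.70 CPM in the same order (adjusted p = 0.000107). Actn1, the actin crosslinker alpha-actinin-1, averaged 152 ± 24.1, 72.8 ± 6.36 and 151 ± 7.91 CPM (adjusted p = 0.0186, or 0.165 without endocardial replicate 3 and 0.0597 without venous replicate 3). Its arterial level was the lowest, and it was lower in arterial than in venous libraries (log2 -1.06 ± 0.17 SE, adjusted p = 0.00371).

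The 4 falls with the smallest p in this list were in adaptors and a kinase. Sorbs2, whose product binds actin and vinculin, stood at 29.2, 24.4 and 32.6 CPM in endocardial libraries, against 146, 155 and 149 CPM in arterial and 90.1, 71.4 and 79.4 CPM in venous libraries (log2 -1.93 ± 0.17 SE, adjusted p = 5.03e-07). It was also higher in arterial than in venous libraries (log2 0.90 ± 0.18 SE, adjusted p = 0.0185), a call lost without arterial replicate 2 (0.112) or 3 (0.0590) or venous replicate 2 (0.155) or 3 (0.102). Nedd9, a docking protein downstream of FAK, averaged 73.3 ± 4.75, 248 ± 23.9 and 182 ± 17.0 CPM in endocardial, arterial and venous libraries (log2 -1.54 ± 0.15 SE, adjusted p = 1.34e-06). The kinase gene Fyn averaged 113 ± 6.40, 242 ± 25.9 and 241 ± 6.22 CPM (log2 -1.10 ± 0.14 SE, adjusted p = 2.67e-05), and Dock1, an activator of Rac, 142 ± 23.7, 296 ± 25.9 and 252 ± 19.9 CPM (log2 -0.94 ± 0.15 SE, adjusted p = 0.00025). Sorbs2 and Actn1 were the only genes of this list called between arterial and venous libraries.

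Of 32 regulators of integrin activity and traffic 31 were tested, and 5 were higher and 5 lower in endocardial than in coronary libraries, where 13.9% of all genes tested were called. Of genes at a mean of at least 5 CPM, 20.8% were called. None was called between arterial and venous libraries, where 1.07% of all genes were. Dab2, an endocytic adaptor that carries integrins, averaged 175 ± 28.6, 52.3 ± 2.27 and 72.4 ± 5.77 CPM in endocardial, arterial and venous libraries (log2 1.51 ± 0.15 SE, adjusted p = 1.51e-06). The tetraspanins Cd63, Tspan4 and Cd9, membrane proteins that associate with integrins, were higher too, with log2 differences of 1.10 ± 0.14, 2.23 ± 0.42 and 0.78 ± 0.17 SE (adjusted p = 3.04e-05, 0.00133 and 0.00411). Cd9 was not called without endocardial replicate 3 (0.0529). Cav1, the coat protein of caveolae, stood at 595, 683 and 872 CPM in endocardial libraries, against 2371, 3421 and 2911 CPM in arterial and 2662, 2783 and 2816 CPM in venous libraries (log2 -1.98 ± 0.16 SE, adjusted p = 1.51e-07). The Rap activators Rapgef2 and Rapgef1 and the Ras inhibitor Rasa1 were lower, by log2 differences of -0.84 ± 0.18, -1.25 ± 0.26 and -0.67 ± 0.17 SE (adjusted p = 0.00337, 0.00635 and 0.0103). Rasa1 was not called without endocardial replicate 2 (0.0842).

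Many of the ligands differed between the populations. Of 53 genes of matrix proteins and cell surface ligands of integrins 51 were tested, and 21 were higher and 7 lower in endocardial than in coronary libraries, with a median log2 difference of 0.86. Of all genes tested 6.91% were higher and 7.00% lower, with a median of 0.08, and 20.8% of those at a mean of at least 5 CPM were called in either direction. Fn1, fibronectin, stood at 3496, 5461 and 5854 CPM in endocardial libraries, against 628, 974 and 839 CPM in arterial and 847, 1044 and 954 CPM in venous libraries (log2 2.49 ± 0.16 SE, adjusted p = 4.68e-08). It is a ligand of alpha5, alphav and alpha8, and the genes of the last pair of chains were higher in the same libraries. Tgfbi, a matrix protein that binds collagen and integrins, averaged 162 ± 8.54, 1.98 ± 0.438 and 28.1 ± 4.23 CPM in endocardial, arterial and venous libraries (log2 4.44 ± 0.18 SE, adjusted p = 8.35e-11). Periostin, coded by Postn and a ligand of alphav receptors, averaged 1047 ± 93.7, 60.5 ± 8.58 and 574 ± 38.9 CPM (log2 2.49 ± 0.13 SE, adjusted p = 7.53e-10). Col5a1, a chain of the fibrillar type V collagen, averaged 276 ± 112, 11.8 ± 2.76 and 90.5 ± 12.8 CPM (log2 3.08 ± 0.24 SE, adjusted p = 1.66e-06).

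Several basement membrane genes went the other way. Lama2, the laminin alpha2 chain, averaged 3.77 ± 1.88, 36.2 ± 4.18 and 20.9 ± 2.77 CPM in endocardial, arterial and venous libraries (log2 -2.87 ± 0.34 SE, adjusted p = 1.25e-05). Nid2, which links laminin to type IV collagen, averaged 46.3 ± 14.7, 379.7 ± 96.2 and 321 ± 82.2 CPM (log2 -2.91 ± 0.28 SE, adjusted p = 1.3e-05), and Lamc1, the laminin gamma1 chain, 568 ± 137, 955 ± 147 and 917 ± 122 CPM (log2 -0.72 ± 0.17 SE, adjusted p = 0.0067). Icam2, the ligand of leukocyte integrins on endothelium, averaged 79.2 ± 20.0, 159.8 ± 39.9 and 145 ± 17.6 CPM (log2 -0.94 ± 0.20 SE, adjusted p = 0.0036). Col4a1 and Col4a2, the ubiquitous chains of type IV collagen and ligands of alpha1, were not called (log2 -0.64 ± 0.23 and -0.58 ± 0.41 SE, adjusted p = 0.108 and 0.474), but were with the replicate block (adjusted p = 0.000353 and 0.00161). They were singled out after their values were seen.

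Between arterial and venous libraries 1 ligand gene was higher and 13 were lower of 51 tested, against 0.310% and 0.760% of all genes tested. Postn (log2 -3.25 ± 0.16 SE, adjusted p = 1.83e-08), Col3a1 (log2 -4.49 ± 0.26 SE, adjusted p = 1.42e-07), Tgfbi (log2 -3.82 ± 0.24 SE, adjusted p = 1.42e-07) and Col1a2 (log2 -4.05 ± 0.28 SE, adjusted p = 6.39e-07) were the lower genes with the smallest p. Fibrillar collagens and periostin are products of fibroblasts as well. The fibroblast sum given above was lowest in the arterial libraries, but it shares genes with the ligand list, Col1a1 and Col1a2 among them. This sum is therefore not independent of the ligand levels, and the part of fibroblasts in them was not tested. Lama3, the laminin alpha3 chain, was the higher one, at 5.73, 2.09 and 12.0 CPM in endocardial, 20.6, 37.5 and 26.1 CPM in arterial and 7.22, 6.11 and 3.89 CPM in venous libraries. Its call (log2 2.29 ± 0.52 SE, adjusted p = 0.0497) was lost with the replicate block (adjusted p = 0.0864) and without any single library except endocardial replicates 2 and 3 and arterial replicate 1 (adjusted p = 0.0666 to 0.235).

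**Figure D5:**
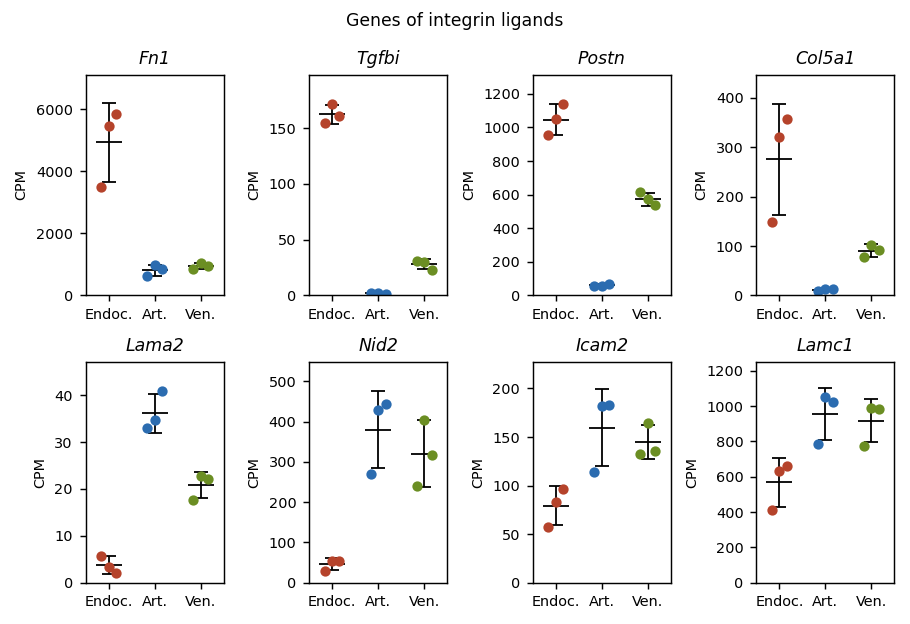
CPM on a linear axis from 0 in each library (dots) for 8 named ligand genes, with the mean and bars of 1 SD for endocardial (Endoc.), arterial (Art.) and venous (Ven.) libraries. Fn1, Tgfbi, Postn and Col5a1 are highest in the endocardial libraries, Lama2, Nid2, Icam2 and Lamc1 are lowest there, and Tgfbi, Postn and Col5a1 are lowest in the arterial libraries.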

How the data were processed

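The authors deposited a table of expected counts per gene, made with RSEM 1.2.3 after CASAVA 1.8.2 and cutadapt 1.3 on GRCm38, per the submitters' processing notes. Which aligner was used and whether counting used strand is not given in the sources used here. Libraries were made from 1 ng of RNA by amplification, per the labels' protocols, and sequenced as single reads. These protocols name more than 1 library kit. Low counts of amplified RNA carry noise beyond counting error. Of the values above 0, 45.5% were not whole, and all were rounded. A fit with 1 mean per population over all 9 libraries used edgeR 4.0.16 in R 4.3.3 (TMM scaling, minimum count of 10, robust quasi-likelihood F test). The threshold for a call was 0.05 after Benjamini-Hochberg adjustment over 17103 genes. The common dispersion was 0.409. Each value ± SD is over 3 libraries, and each difference is on the log2 scale with its SE. Symbols came from a separate list of gene names matched by Ensembl gene id. Coordinates and exon lengths came from GENCODE mouse M21, and promoters from RefSeq. The script was tested on simulated data.

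The members and lists were chosen with earlier results of these data known. Values in every library were given for members called in any comparison and for Itgb1, Itgav, Itga5, Tln1, Ilk and Ptk2. Of each list, up to 4 called genes per direction with the smallest p were named. Lims1, Lims2, Col4a1 and Col4a2 were named outside this rule. The batch in the labels equals the replicate number and so pairs the libraries. Deviations from the population means correlated at -0.149 to 0.227 between libraries of the same number. Between libraries of different number and population they correlated at -0.316 to 0.217. These overlapping ranges do not show that the pairing can be left out. The fit with this replicate block is an alternative, beside DESeq2 1.42.0, limma-voom (limma 3.58.1), other scalings, other filters and each library left out.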

Additional observations from a re-analysis of the deposited data

How the results depend on the processing

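The direction of every called member held under all alternatives tried (RLE and upper-quartile scaling, DESeq2, limma-voom, no filter, a stricter filter with a minimum count of 50, the replicate block and each of the 9 libraries left out). Between endocardial and coronary libraries 10 members were called, 11 with limma-voom (Fermt3 added) and 6 to 10 with 1 library left out, the lowest without endocardial replicate 2. All genes called numbered 2379 there, and 1805 to 2493 with 1 library left out. Between arterial and venous libraries 183 genes were called, against 356 with DESeq2, 439 with no filter, 117 with limma-voom and 120 to 225 with 1 library left out (120 without venous replicate 1). The share of these calls that were higher was 29.0%, against 41.6%, 40.8% and 47.9% with DESeq2, no filter and limma-voom, and 43.9% in a fit of the arterial and venous libraries alone. No member was called there, except Itga8 with no filter and without arterial replicate 3 (1 member each, 0 to 1 over the left-out libraries). Against arterial libraries 8 members were called, 5 to 8 with 1 library left out (5 without arterial replicate 2), and 1996 genes, 1507 to 2251 with 1 left out. Against venous libraries 7 members were called, 11 with DESeq2 and 4 to 9 with 1 library left out (4 without endocardial replicate 2 or venous replicate 3), and 1753 genes, 1130 to 1871 with 1 left out (1130 without venous replicate 3). The cause of these changes was not tested; the fits without a library hold fewer samples. With the replicate block, which pairs libraries of the same number, 10 members were again called between endocardial and coronary libraries, and against venous libraries Itgav (adjusted p = 0.0345) and Ilk (0.00552) were added, making 9; it changed no other call among the members. The 4 members that were not tested were at too few counts for a difference to be detectable at this depth.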
